A study of Mus musculus with 8 samples.

Results

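The genes described here encode the proteins that are particular to the minor spliceosome. They are Rnpc3, Zcrb1, Zmat5, Snrnp25, Snrnp35, Snrnp48, Pdcd7, Zrsr1 and Zrsr2, taken by symbol, and all 9 were found among the 39017 genes of the deposited table. RNA had been sequenced from iGBs, induced germinal center-like B cells made by growing splenic B cells of C57BL6/J mice with IL-4 on 40LB cells, a fibroblast feeder line that expresses CD40L and BAFF. Cells were collected at day 4 and parted from the feeders by elutriation. The 4 Prmt5-null libraries came from Prmt5F/F Cγ1-cre mice and have the numbers 10617, 10618, 10770 and 10771 in their labels. The 4 control libraries came from Cγ1-cre mice and have the labels CTRL-10650 and CTRL-10370, then CTRL-10596 and CTRL-10597. Values of a gene are given below in these orders. Both groups thus carried the Cre, which the Cγ1 locus drives once B cells are activated, so that Prmt5 was deleted in culture and a share of undeleted cells may remain. The labels do not give the age of the mice.

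A small class of introns, called U12-type, is removed by the minor spliceosome and not by the major one. Its U11 and U12 snRNAs act as a joined particle, the U11/U12 di-snRNP, in which U11 pairs with the 5′ splice site and U12 with the branch site, while U4atac and U6atac take part in catalysis. Like the U1, U2, U4 and U5 snRNAs, U11, U12 and U4atac carry a ring of Sm proteins, some of which are substrates of Prmt5, the enzyme that makes symmetric dimethylarginine.

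The deposited values are reads on genes divided by the size factor of the library, called normalized counts here, and whole reads could be recovered for 100% of them within a tolerance of 0.01. Libraries held from 36731721 to 50366174 reads on genes. Prmt5 was at 1291, 1994, 1060 and 1808 normalized counts in the Prmt5-null libraries and between 11084 and 13087 in controls, so that every label was borne out by the targeted gene. B cell markers summed to between 148893 and 177101 normalized counts in Prmt5-null and between 147135 and 170421 in control libraries, although 1 of the 6, Cd79a, was called lower (-0.74 on the log2 scale; limma adjusted p = 0.000327). Of 5 germinal center markers, Fas and Mef2b were called higher and S1pr2 lower, and of 3 plasma cell markers Prdm1 and Xbp1 were called lower; their part in the results below was not tested. T cell markers summed to at most 19.0 and myeloid markers to at most 119 in any library. Fibroblast markers, which the feeder cells express, summed to between 5359 and 9412 in Prmt5-null and between 3350 and 5976 in control libraries, and 3 of the 7 that were tested were called higher. In bulk RNA, fewer cells of a type and less RNA per cell cannot be told apart.

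No U11/U12-specific protein gene was called between the genotypes (0 of 9), where 13.8% of the 16250 genes tested were called. A call here is an adjusted p below 0.05 from limma, fitted on log2(normalized count + 1) to all genes with a mean of at least 10, a filter that all 9 members passed. With a change of at least 1.5-fold asked for as well, the count was again 0 of 9, against 6.48% of all genes. The estimate lay above 0 for 8 of 9 members, against 50.4% of all genes tested, and the median difference of the members was 0.13 on the log2 scale, against 0.00 for all genes tested. The 95% intervals of all 9 differences stayed within 1.5-fold in either direction, as did those of 57.4% of all genes tested. Only 1 member, Zmat5, had an unadjusted p below 0.05 in limma, against 29.3% of all genes tested. On the recovered reads, edgeR and DESeq2 each called 1 member, again Zmat5, where they called 14% and 18.9% of all genes.

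**Figure D1:**
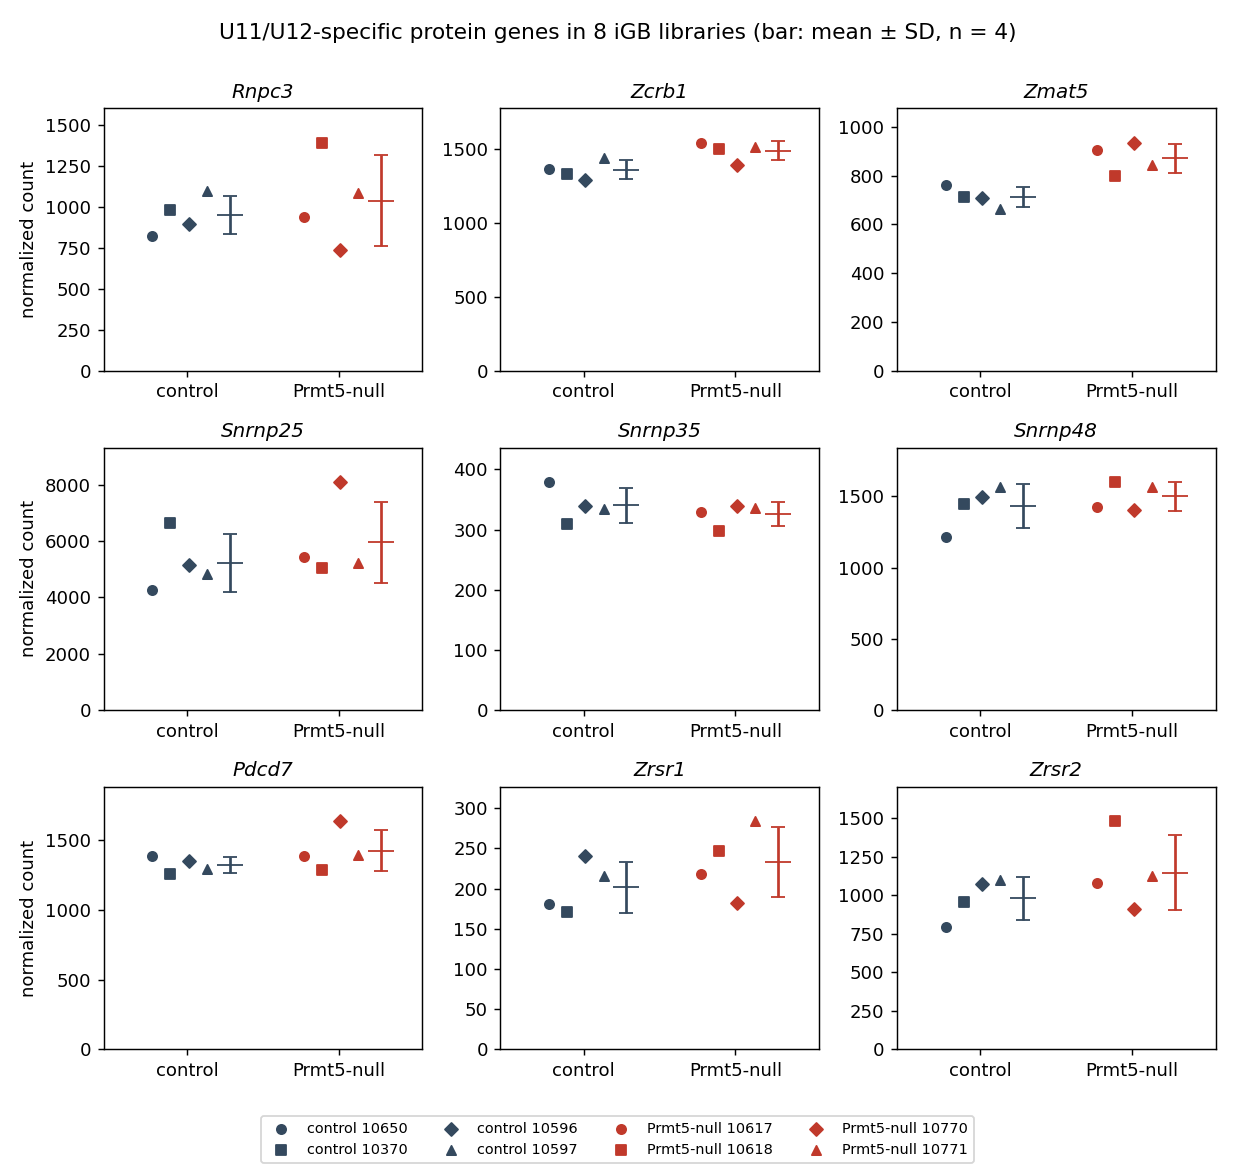
Normalized counts (vertical axes, from 0) of the 9 U11/U12-specific protein genes in 4 control and 4 Prmt5-null libraries. Each symbol is 1 library and the bars beside them are the mean ± SD; the groups part only for Zmat5, and Snrnp25 in Prmt5-null 10770 stands at 8095.

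Rnpc3 (chr3:113605067-113630149, minus strand, GRCm38) and Pdcd7 (chr9:65346104-65359643, plus) encode the proteins that hold the particle together: Rnpc3 binds the U12 snRNA and Pdcd7, in the U11 particle. Rnpc3 was at 936, 1390, 735 and 1082 normalized counts in Prmt5-null 10617, 10618, 10770 and 10771, and at 824, 982, 895 and 1093 in the control libraries. Both the highest and the lowest library were Prmt5-null, and the log2 difference was 0.10 (95% interval -0.27 to 0.46; limma adjusted p = 0.749). Exons of Amy1 on the same strand share 1128 annotated bases with Rnpc3, and Amy1 had a mean of 96.9 normalized counts. Pdcd7 was at 1381, 1283, 1632 and 1386 normalized counts in Prmt5-null and 1382, 1257, 1347 and 1290 in control libraries. Prmt5-null 10770 was the highest of the 8 and the others lay within or just above the control range, with a log2 difference of 0.10 (95% interval -0.09 to 0.30; limma adjusted p = 0.483), or 0.034 without 10770.

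Snrnp48 (chr13:38204938-38227665, plus) and Snrnp35 (chr5:124483134-124491124, plus) belong to the U11 side: the Snrnp48 protein contacts the 5′ splice site, and Snrnp35 resembles the U1 protein that Snrnp70 encodes. Snrnp48 was at 1423, 1602, 1407 and 1567 normalized counts in Prmt5-null and 1217, 1450, 1496 and 1569 in control libraries, which overlapped almost throughout. Its log2 difference was 0.07 (95% interval -0.14 to 0.28; limma adjusted p = 0.674). Snrnp35 was at 329, 297, 340 and 336 normalized counts in Prmt5-null and 379, 308, 340 and 334 in control libraries. It was the only member whose estimate lay below 0, at -0.06 (95% interval -0.31 to 0.18; limma adjusted p = 0.756), with the highest library a control and the lowest a Prmt5-null one.

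Zmat5 (chr11:4704678-4737669, plus), Zcrb1 (chr15:93386097-93398334, minus) and Snrnp25 (chr11:32205415-32208984, plus) encode further proteins of the di-snRNP, of which Zmat5 and Zcrb1 have zinc-binding motifs and Snrnp25 a ubiquitin-like fold. Zmat5 was at 904, 798, 935 and 843 normalized counts in Prmt5-null and 761, 713, 706 and 664 in control libraries. It was the only member whose genotypes did not overlap, with all 4 Prmt5-null libraries higher, an order shown by 9.67% of all genes tested, while 10.2% showed the reverse order and no member did. The log2 difference was 0.29 (95% interval 0.09 to 0.49), with an adjusted p of 0.0535 in limma and a two-sided exact permutation p of 0.0286, the smallest that 4 libraries against 4 allow. The adjusted p fell on either side of 0.05 among the alternatives, from 0.0154 to 0.136. Fibroblast markers were also higher in Prmt5-null libraries, as given above, and their part in the Zmat5 difference was not tested.

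Zcrb1 was at 1544, 1503, 1396 and 1517 normalized counts in Prmt5-null and 1368, 1334, 1292 and 1443 in control libraries. Of the Prmt5-null libraries, 10770 alone fell inside the control range, and the log2 difference was 0.13 (95% interval -0.03 to 0.30; limma adjusted p = 0.275). Snrnp25 was at 5432, 5051, 8095 and 5222 normalized counts in Prmt5-null and 4245, 6640, 5160 and 4817 in control libraries. Prmt5-null 10770 stood well above the other libraries of its genotype, and the other 3 lay inside the control range. The log2 difference of Snrnp25 was 0.18 (95% interval -0.17 to 0.53; limma adjusted p = 0.489) with that library and 0.02 without it.

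Zrsr2 (chrX:163935443-163958661, minus) and Zrsr1 (chr11:22972005-22976496, plus) encode proteins that resemble U2af1 and recognise the 3′ splice site. Zrsr1 is an intronless copy that lies within Commd1 on the opposite strand. Zrsr2 was at 1079, 1480, 908 and 1122 normalized counts in Prmt5-null and 792, 954, 1076 and 1097 in control libraries. Prmt5-null 10618 was the highest by a wide margin, and the log2 difference was 0.22 (95% interval -0.11 to 0.54; limma adjusted p = 0.364) with that library and 0.086 without it. Zrsr1 was at 219, 247, 182 and 284 normalized counts in Prmt5-null and 181, 171, 240 and 216 in control libraries, with a log2 difference of 0.20 (95% interval -0.17 to 0.56; limma adjusted p = 0.469), or 0.097 without the highest library, Prmt5-null 10771. Exons of Commd1, which had a mean of 1825 normalized counts, share 412 bases with Zrsr1, and the strand setting of the counting is not given in the sources used here, so that the Zrsr1 value may hold reads of Commd1. The longest annotated coding sequences of Zrsr1 (1284 bases) and Zrsr2 (1623 bases) were 80.6% identical over 1279 aligned columns, with 37 bases as the longest identical run.

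**Figure D2:**
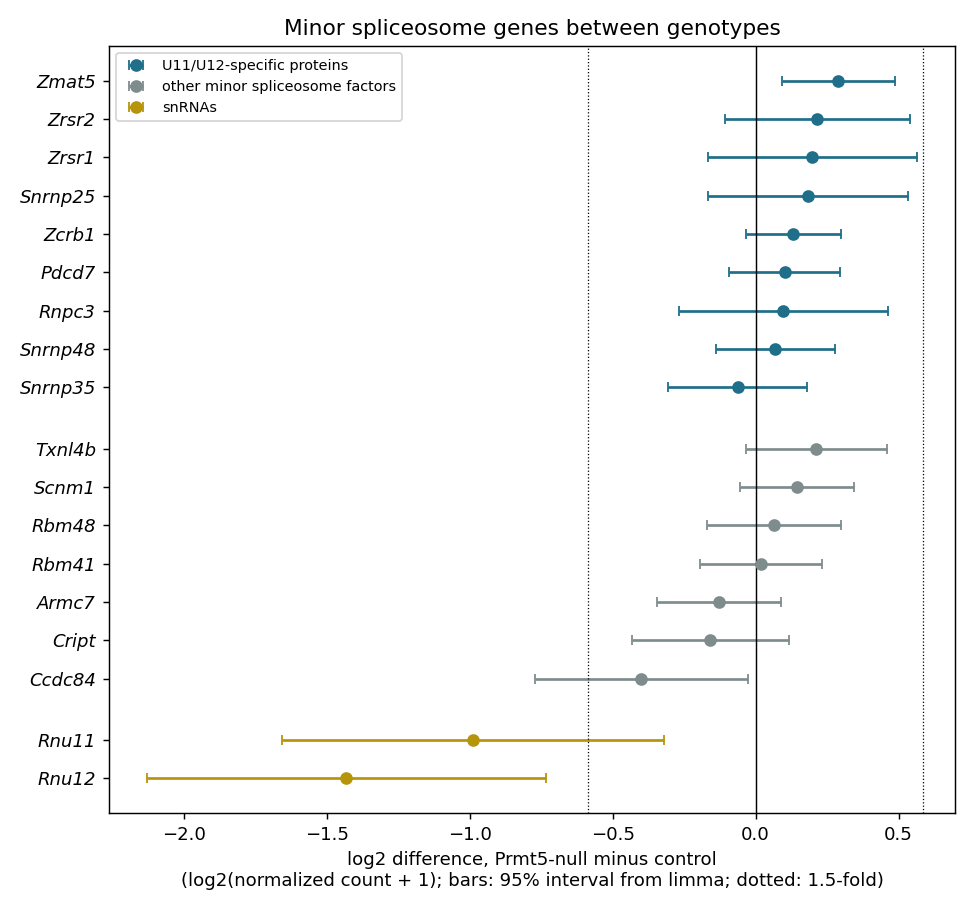
Log2 differences, Prmt5-null minus control, on log2(normalized count + 1) for the U11/U12-specific proteins, 7 other minor spliceosome factors and the U11 and U12 snRNAs; points are limma estimates, bars their 95% intervals and dotted lines 1.5-fold. The intervals of all 9 members lie between the dotted lines, and that of Rnu12 lies wholly beyond them on the lower side.

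No library was low or high throughout. Among the Prmt5-null libraries, 10770 was the lowest for 5 members and the highest for the other 4, and 10618 was the highest for 3 and the lowest for 4. In controls, CTRL-10650 was the highest for 3 and the lowest for 4, and CTRL-10597 the highest for 4 and the lowest for 1. Of the Prmt5-null libraries, 10770 had the lowest Rnpc3, Zcrb1, Snrnp48, Zrsr1 and Zrsr2 and the highest Zmat5, Snrnp25, Snrnp35 and Pdcd7. The SD of the Prmt5-null libraries was 26.6% of their mean for Rnpc3, 24.2% for Snrnp25 and 21.0% for Zrsr2, but 4.37% for Zcrb1 and 5.98% for Snrnp35.

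Levels of different genes were compared per kilobase of annotated exon, in the 4 control libraries. Snrnp25 was far above the other members at 5010 ± 982 normalized counts per kb (SD, n = 4), which was 8.79 times the next, Zmat5, at 570 ± 32.1. Pdcd7 followed at 528 ± 22.4 per kb, and its range of 503 to 553 overlapped that of Zmat5, 532 to 610. Zcrb1 was at 442 ± 20.8 and Snrnp35 at 253 ± 21.7 per kb, and neither range overlapped that of a neighbor. Rnpc3, at 143 ± 17.5, Snrnp48, at 141 ± 15.0, and Zrsr2, at 136 ± 19.5 per kb, did not differ beyond their spread. Zrsr1 was the lowest at 45.0 ± 7.08 per kb. Undivided by length, Snrnp25 was 3.64 times the next gene, then Snrnp48. The exonic length joins the exons of all annotated transcripts, 10129 bases for Snrnp48 and 1041 for Snrnp25, so rarely used exons lower the value of a gene.

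**Figure D3:**
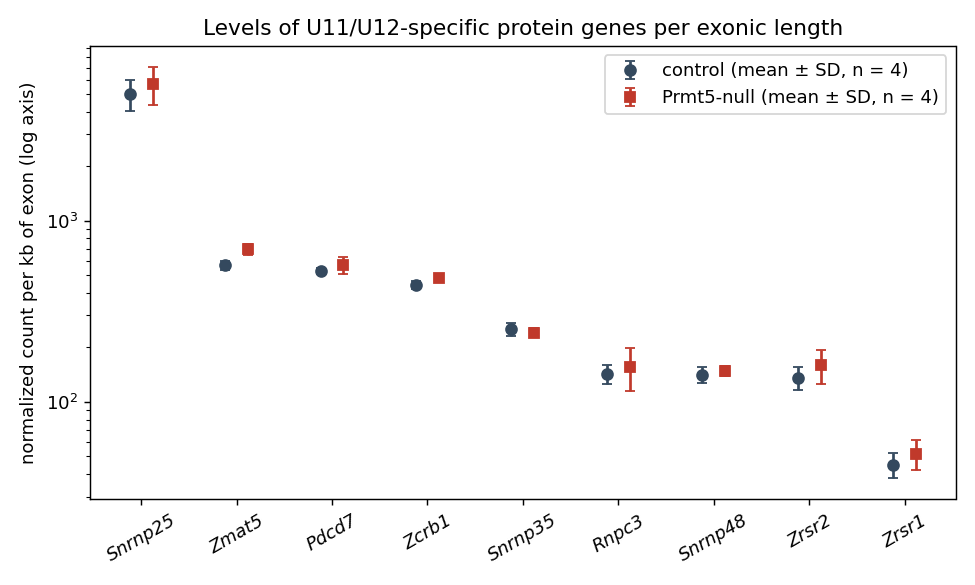
Normalized counts per kb of annotated exon (log axis) for the 9 U11/U12-specific protein genes, as mean ± SD of 4 control and 4 Prmt5-null libraries. Snrnp25 stands at 5010 in controls and the other members between 45.0 and 570.

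Of the snRNAs of the di-snRNP, Rnu12 was called lower in Prmt5-null libraries and Rnu11 lay just short of a call. They are printed as DNA letters from the GENCODE transcripts of GRCm38, 5′ to 3′, with the Sm site (an A, a run of T and a G) in capitals, because it is there that the Sm ring forms. Rnu11 is the 134-base gene at chr4:132270080-132270213 on the minus strand, and Rnu12 the 151-base gene at chr15:83149644-83149794 on the plus strand. Near its 5′ end Rnu12 holds taagga, the letters that can pair with the branch site of a U12-type intron.
Rnu11: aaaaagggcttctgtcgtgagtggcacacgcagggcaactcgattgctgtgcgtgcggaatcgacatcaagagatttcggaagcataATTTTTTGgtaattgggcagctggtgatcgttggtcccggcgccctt
Rnu12: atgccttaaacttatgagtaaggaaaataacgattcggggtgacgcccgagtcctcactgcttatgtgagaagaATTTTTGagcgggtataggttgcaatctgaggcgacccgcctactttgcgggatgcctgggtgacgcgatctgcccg

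Rnu12 was at 32.4, 91.9, 109 and 99.0 normalized counts in Prmt5-null 10617, 10618, 10770 and 10771 and at 214, 204, 229 and 177 in controls. All 4 Prmt5-null libraries lay below all controls, the log2 difference was -1.43 (95% interval -2.13 to -0.73) and Rnu12 was called (limma adjusted p = 0.0119). Rnu11 was at 116, 292, 436 and 265 normalized counts in Prmt5-null and 584, 483, 499 and 435 in control libraries. Prmt5-null 10770 just overlapped the lowest control, and Rnu11 missed the threshold, with a log2 difference of -0.99 (95% interval -1.66 to -0.32; limma adjusted p = 0.0517). Single libraries moved the Rnu11 estimate either way. Without Prmt5-null 10770 the difference was -1.26 and Rnu11 was called (limma adjusted p = 0.00868). Without Prmt5-null 10617 it was -0.62 and again just short of a call (limma adjusted p = 0.05 after rounding). Rnu12 differed by -1.03 without 10617 and was called (limma adjusted p = 0.00286). For both snRNAs the lowest library was Prmt5-null 10617, whose member genes were neither the lowest of their genotype in any case nor, but for Zcrb1, the highest. The same library had the highest sum of fibroblast markers, 9412 normalized counts, and the part of feeder RNA in the snRNA differences was not tested.

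Short RNAs are poorly kept by the columns used for RNA purification and by library preparation, so the level of a snRNA here need not follow its level in the cell, and the part of such losses was not tested. Of 58 annotated snRNA genes that were tested, 2 were called higher and 5 lower, or 12.1%, and of 281 snoRNA and scaRNA genes 13 were called higher and 20 lower, or 11.7%, both near the share of all genes. The symbols Rnu4atac and Rnu6atac were not found among the genes of the deposited table, so these snRNAs were not analysed here. A lincRNA, Gm28872, is annotated over the whole of Rnu11 on the opposite strand.

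**Figure D4:**
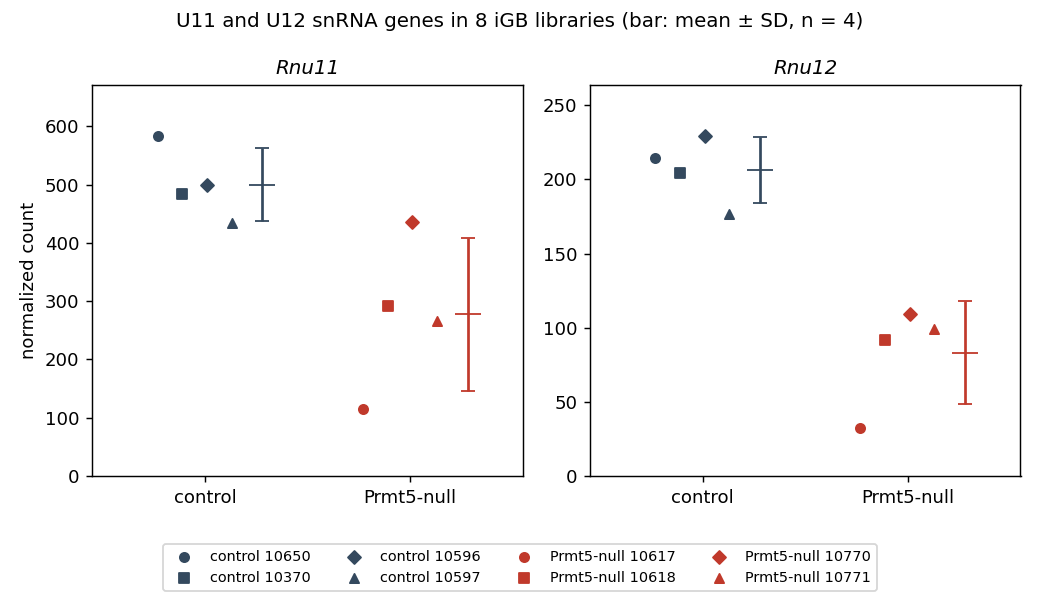
Normalized counts (vertical axes, from 0) of the U11 and U12 snRNA genes in 4 control and 4 Prmt5-null libraries, with each symbol 1 library and bars for the mean ± SD. Rnu12 reached at most 109 in Prmt5-null and at least 177 in control libraries, and Rnu11 touched at about 435.

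Of 7 other factors that work with the minor spliceosome, 0 were called, beside 13.8% of all genes tested. Their median log2 difference was 0.02. Scnm1, a component of the minor spliceosome that holds the U12-type branch region, differed by 0.15, and Rbm48 and Armc7, which form a complex in it, by 0.06 and -0.13 on the log2 scale. Txnl4b differed by 0.21, Cript by -0.16 and Rbm41, which binds the same kind of snRNA hairpin as Rnpc3, by 0.02. The lowest estimate was that of Ccdc84 (also Cenatac, known for U12-type introns with AT-AN ends), at -0.40 (95% interval -0.77 to -0.03; limma adjusted p = 0.144).

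Among 11 counterparts in the major spliceosome, U2af1 was the only call (9.09%), beside 13.8% of all genes tested. U2af1, which recognises the 3′ splice site of major introns as Zrsr2 does in minor ones, rose by 0.35 (95% interval 0.16 to 0.53; limma adjusted p = 0.0171), from 1215 ± 98.3 normalized counts in control to 1542 ± 62.2 in Prmt5-null libraries (SD, n = 4 each). Without CTRL-10650 or without CTRL-10370 its adjusted p was 0.0516 and 0.0523. Sf3a3 of the U2 particle differed by 0.20 (limma adjusted p = 0.108), U2af2, the partner of U2af1, by 0.19 (limma adjusted p = 0.140), Snrpc by 0.12 and Snrpa by -0.06, and none of these was called. The difference between Zrsr2 and U2af1 in their response was not tested.

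Zcrb1 was the only member (1 of 9) with an event in the deposited splicing tables, in which the authors kept a single event of a type for a gene, the most significant among those past a minimum difference. Of 13300 genes with a mean above 50, 11.4% had an event of some type. The event is a skipped exon of Zcrb1, chr15:93391454-93391565 in GRCm38 on the minus strand, which is coding in the annotation and whose 112 bases are not a multiple of 3 (remainder 1). It is printed 5′ to 3′ in the sense of Zcrb1, as the only sequence of a member with a deposited event.
Zcrb1 exon: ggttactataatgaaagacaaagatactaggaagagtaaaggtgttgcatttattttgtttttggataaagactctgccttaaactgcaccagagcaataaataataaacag

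The authors' inclusion levels of this Zcrb1 exon, on a scale from 0 to 1, were 1.00 in all 4 control values and 0.678, 0.840, 0.786 and 0.724 in Prmt5-null, a difference of -0.24 between the means. The lists do not name their libraries, so no SD is given, and since the events were selected on this very comparison no test was run. Few reads stood behind these levels: 0 of 37 control reads skipped the exon, which allows a share of up to 8.11%, and 6 of 41 Prmt5-null reads did, or 14.6% (95% exact binomial interval 5.57 to 29.2), as shares of reads not corrected for length. These intervals cover counting error only. A further annotated exon of 108 bases, chr15:93391051-93391158, lies between the skipped exon and the flank of the event, chr15:93387747-93387859. On the other side of the skipped exon, 1 transcript has an exon of 58 bases, chr15:93393707-93393764. Reads counted as skipping leave both out as well. A junction from the skipped exon to either flank, counted as inclusion, leaves out the one on that side. The event had 78 reads over all 8 libraries, where Zcrb1 was at 1292 to 1544 normalized counts in each. The levels therefore need not be shares of all Zcrb1 mRNA. The effect on the reading frame was not worked out. Zcrb1 as a whole was not lower in Prmt5-null libraries, as given above. Among the other genes listed here, U2af1l4, a relative of U2af1, had a retained intron at levels of 0.178 to 0.363 in control and 0.421 to 0.592 in Prmt5-null values. U2af2 had an alternative 5′ splice site at 0.347 in control and 0.506 in Prmt5-null on average (4885 reads), and an alternative 3′ splice site at 0.200 and 0.0955 (785 reads). The levels of that 3′ splice site overlapped, at 0.104 to 0.338 in control and 0.051 to 0.156 in Prmt5-null values.

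A short repeat of the U12-type 5′ splice site is known from the genes of Snrnp48 and Rnpc3 as an element that U11 binds and by which their mRNA is regulated. The annotated transcripts were searched, in sense, for any base followed by TATCCTT and then a second copy, with at most 20 bases between. Of the 9 members, 2 held such a pair, Rnpc3 and Snrnp48, as did 15 of 13108 annotated genes with a mean above 50 (0.114%). The copies are in capitals.
Rnpc3, chr3:113607236-113607256, minus strand, after the coding sequence: GTATCCTTtcttGTATCCTTt
Snrnp48, chr13:38214668-38214694, plus strand: GTATCCTTtttgcaaatgATATCCTTt
In Snrnp48 the first copy is at the start of an annotated U12-type intron, chr13:38214668-38215063 (396 bases, from GT to AG). Rnpc3 and Snrnp48, the members with this element, differed by 0.10 and 0.07 on the log2 scale, as given above, and had no event in the splicing tables.

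Genes with U12-type introns were taken in 2 ways. Of 30 tested genes known from general knowledge to carry one, 1 was called (3.33%), beside 13.8% of all genes tested. It was Ercc5, a DNA repair nuclease, at 2666, 3248, 2265 and 3110 normalized counts in Prmt5-null and between 1014 and 1265 in control libraries. Ercc5 rose by 1.24 on the log2 scale (SE 0.12; limma adjusted p = 0.000122), while the median of the 30 genes was -0.06 on the log2 scale. Next by adjusted p were Stk11, a kinase, at 0.23 (limma adjusted p = 0.0752), Derl2, of protein degradation at the endoplasmic reticulum, at -0.18 (0.0999), Ints7, an Integrator subunit, at -0.18 (0.106) and Lztr1, an adaptor of a ubiquitin ligase, at 0.21 (0.116), none of which was called. Hps1 and Araf of this list had events: Hps1 a pair of mutually exclusive exons with a difference of -0.15 (768 reads) and Araf a skipped exon with one of 0.34 (39 reads). The Araf levels overlapped, at 0 to 1 in control and 0.762 to 1 in Prmt5-null values.

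Introns whose sequence lies in an exon of another annotated transcript could be read, 15306 in all, of which 56 in 46 genes (0.366%) began with GTATCCTT or ATATCCTT. Of all 31 genes in the list from general knowledge, 5 had such an intron and Ercc5 did not, although an intron that cannot be read would be missed. Of the 56 introns, 21 also held CCTTNAC in their last 40 bases, a motif of the branch site that 1.74% of all readable introns hold. Among 41 tested genes with such an intron, 2 were called higher and 3 lower, or 12.2%, near the 13.8% of all genes. Fam92a, at 0.51, and Gimap4, at 0.30, were higher, and Ssr3, at -0.41, E2f6, at -0.40, and Arl16, at -0.37, were lower on the log2 scale. The 3 lower genes have the branch-site motif in that intron and the 2 higher ones do not. Of 20 tested genes with the motif, 0 were called higher and 3 lower, or 15%, beside the 13.8% of all genes. Estimates lay above 0 for 10 of these 20, and their median log2 difference was 0.007, so the genes with the motif were not lower as a list. The 5 called genes were named after their values were seen, as were Smpd4 and Tcea2 below.

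None of the 337 retained-intron events fell on a readable U12-type intron (0 of 48 in genes with a mean above 50, in 39 genes), where 320 of 11384 readable introns in such genes (2.81%) carried one. In 2 of the 39 genes, Smpd4 and Tcea2, the event was at another intron. The Smpd4 intron of the event begins with GTATGCAG, and its levels were 0.727 to 0.948 in control and 0.518 to 0.804 in Prmt5-null values. The Tcea2 intron begins with GTGAGTGT, with levels of 0.073 to 0.183 in control and 0.357 to 0.416 in Prmt5-null values. Because the tables hold at most 1 event of a type per gene, a missing event does not show that an intron was fully spliced, and retention of other introns was not analysed here.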

How the data were processed

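Values of 8 libraries of iGB RNA, prepared after ribosomal RNA removal with a stranded kit, were used. The authors trimmed reads with Trimmomatic 0.32, aligned them with STAR 2.3.0e to the mm10 build (GRCm38), counted them on genes with featureCounts 1.4.4 and deposited a normalized signal, each count divided by the DESeq2 1.14.1 size factor of its library. The deposited rMATS tables hold inclusion levels as fractions and read counts behind them; their p-value, FDR and difference columns hold the authors' comparisons and were not used. In these tables the first form was taken as control and the second as Prmt5-null, as a legend of the study gives it; the loss of the floxed Prmt5 exon had that direction.

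For the comparison of genotypes, limma 3.58.1 with an intensity trend (R 4.3.3) was fitted to log2(normalized count + 1) of the 16250 genes with a mean of at least 10, with Benjamini-Hochberg adjustment of their p-values over the whole set. Alternatives were edgeR 4.0.16 and DESeq2 1.42.0 on recovered reads, other pseudocounts, filters and normalizations, and leaving out each library. The 2 experiments of the study cannot be matched to libraries from the labels. A block for the experiment was therefore fitted in all 18 placements that put 2 libraries of each genotype in each experiment. Uneven placements were not fitted. Each library is from 1 of the 4 independent biological samples that the study gives for its genotype. The fit was tested on simulated data. Sequences, exonic lengths and overlaps came from GENCODE transcripts of GRCm38, read in Python 3.11.15 with pandas 2.3.3, and coding sequences were aligned with Biopython 1.88. The authors counted reads on an Ensembl gene set, so the exonic lengths used here need not be those that were counted. The members and lists were chosen with earlier results of these data known. Named were all members, the measured snRNAs and other factors, Prmt5, and, of counterparts and U12-type intron genes, the 5 with the smallest adjusted p and those with an event. A genome sequence was not used here.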

Additional observations from a re-analysis of the deposited data

Results flagged for a closer look

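Snrnp25 in Prmt5-null 10770 stood at 8095 normalized counts, far from the other 3 Prmt5-null libraries, whose values were 5432, 5222 and 5051, with a gap larger than Dixon's 95% critical value for 4 samples. This was the only such value in 36 groups of libraries tested, and chance gives about 1 in 20.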

How the results depend on the processing

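The count of U11/U12-specific protein genes called was 0 and became 1, in each case Zmat5, with the filter at a mean above 50, with quantile normalization, with edgeR, with DESeq2 and in the highest of the 18 placements of the experiment as a block; leaving out each library in turn gave 0 to 1 (1 without Prmt5-null 10618). Among snRNAs and other factors, 1 gene was called and leave-one-out gave 1 to 2, with Ccdc84 added without Prmt5-null 10618 and Rnu11 without Prmt5-null 10770, and the highest block placement gave 2, with Rnu11 added. Rnu12 was called under all alternatives run. The ratio of Snrnp25 to the next member, 8.79 per kb, was 3.64 undivided by length. Reading introns from annotated transcripts, an alternative chosen after seeing the data, gave another set of genes with a U12-type intron. Of these, 5 of 41 tested were called (12.2%). In the list from general knowledge it was 1 of 30 (3.33%), beside 13.8% of all genes tested. No paired analysis was possible because the groups share no replicate numbers.

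Leaving out 1 library turned the direction of some small differences, none of them called: Rnpc3 ranged from -0.058 to 0.25 (below 0 without Prmt5-null 10618), Snrnp48 from -0.0068 to 0.12 (without CTRL-10650), Rbm48 from -0.0037 to 0.14, Rbm41 from -0.048 to 0.081 and U2af1l4 from -0.066 to 0.12. The median of the members lay between 0.11 and 0.16 under the alternatives. Genes called over the whole table numbered 2249, and 1374 without Prmt5-null 10771. The causes of these shifts were not tested.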
